A study of Mus musculus with 6 samples.

Results

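The Hippo pathway and the transcription factors of the trophectoderm were described here by 10 genes, found by symbol in the authors' deposited table among 29431 genes. They are the DNA-binding factors Tead4 and Tead1, the co-activators Yap1 and Wwtr1, the scaffold Amotl2, the kinases Lats1 and Lats2, and the trophectoderm factors Cdx2, Gata3 and Tfap2c. All 10 were in the table, and 5 of them reached an average of 1 FPKM across the 6 libraries and entered the test. The other 5 are given as levels.

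The study compared wild-type mouse embryos at the 4-cell stage, untreated in the control group and exposed to AXKO-0046, an inhibitor of lactate dehydrogenase B (LDHB), in the other, with 3 libraries in each. The description speaks of 6 embryos without saying whether per group or per library. The labels used here give no strain, dose or length of exposure. The labels do not say whether replicate libraries stem from different litters or cultures. The p-values therefore reflect variation among these libraries alone, which may be technical.

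In the Hippo pathway, a kinase cascade ending in LATS1 and LATS2 phosphorylates the co-activators YAP1 and TAZ (encoded by Wwtr1) and keeps them out of the nucleus. Where the cascade is inactive, the co-activators enter the nucleus and work with TEAD factors. In the mouse morula this happens in outer, polarized cells, where TEAD4 with YAP1 and TAZ, and TFAP2C, promote Cdx2 and Gata3, the transcription factors of the trophectoderm, the lineage that forms the placenta. Angiomotin family proteins hold the co-activators in the cytoplasm and assist LATS, and the apical polarity complex restrains them in outer cells. The control of YAP1 and TAZ is exerted on protein and location, which RNA levels do not measure.

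The libraries were unequal in ways that touch the values below. Total FPKM was 511534 to 524538 in the controls and 457016 to 498309 under the inhibitor, and transcripts of mitochondrial DNA made up 15.1 to 18.9% and 10.6 to 11.98% of it, so in both measures the groups did not overlap. The part of this shift in the values below was tested only by rescaling. Each library had 20094 to 22142 genes above 0, at an unknown number of reads. Inhibitor replicate 2 stood apart, with a median Pearson correlation with the others of 0.888 against 0.946 to 0.965 for the rest, across genes that are not independent replicates. Its 13 markers of the 2-cell stage summed to 1981 FPKM, against 49.6 to 113.9 FPKM in the controls and 71.9 and 81.8 FPKM in the other inhibitor libraries. Among them Gm4340 was at 901 FPKM there and at 0.923 to 18.6 FPKM elsewhere, Usp17lc was at 19.4 and at most 1.67 FPKM, and 0 of the 13 passed in limma. Inhibitor replicate 3 stood apart on the second principal component. All 9 preimplantation markers were above 0 in every library, led by Dppa3 at 10514 to 18144 FPKM. Ooep and Nlrp5 were the lowest, averaging 0.833 and 0.832 FPKM over the 6 libraries, and were not tested. Of 7 tested 0 passed, with Oosp1, an oocyte-secreted protein, at 15.3 ± 2.16 FPKM without and 5.37 ± 2.72 FPKM with the inhibitor, and Zp3, of the zona pellucida, at 28.4 ± 5.71 and 20.8 ± 2.95 FPKM (SD, n = 3 each). For Oosp1 all inhibitor libraries lay below all controls (unadjusted p = 0.00147, limma adjusted p = 0.378), and the authors' deposited table marks it, with a ratio of means of 0.352 and a q-value of 0.0311. Of 13 cumulus and granulosa cell markers 6 were in the table, and their sum was at most 1.05 FPKM in any library. Of 8 sperm markers 4 were in the table, with a sum of at most 1.28 FPKM. In bulk samples a change in the share of cells that carry a transcript and a change in its level per cell cannot be told apart.

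The start regions of 3 genes are shown as examples, among the members whose start regions hold the TEAD or TFAP2 letters given below. They are the 250 bases before the RefSeq start in GRCm38.p6, all on the minus strand and outside the exons of the gene in GENCODE M21. Capitals mark the TEAD letters CATTCC, read as GGAATG on the other strand, and the TFAP2 letters GCCNNNGGC, which read the same on both strands.
Wwtr1, chr3:57575911-57576160: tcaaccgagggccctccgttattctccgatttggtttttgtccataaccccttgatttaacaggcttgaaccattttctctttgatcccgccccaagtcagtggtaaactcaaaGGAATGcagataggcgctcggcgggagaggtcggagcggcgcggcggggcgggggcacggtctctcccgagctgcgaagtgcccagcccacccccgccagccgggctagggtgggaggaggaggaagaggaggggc
Yap1, chr9:8004597-8004846: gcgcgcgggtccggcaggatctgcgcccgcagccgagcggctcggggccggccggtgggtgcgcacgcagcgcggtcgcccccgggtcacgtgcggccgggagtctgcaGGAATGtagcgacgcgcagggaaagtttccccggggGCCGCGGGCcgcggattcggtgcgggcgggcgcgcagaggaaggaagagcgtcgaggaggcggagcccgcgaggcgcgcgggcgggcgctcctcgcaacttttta
Gata3, chr2:9878601-9878850: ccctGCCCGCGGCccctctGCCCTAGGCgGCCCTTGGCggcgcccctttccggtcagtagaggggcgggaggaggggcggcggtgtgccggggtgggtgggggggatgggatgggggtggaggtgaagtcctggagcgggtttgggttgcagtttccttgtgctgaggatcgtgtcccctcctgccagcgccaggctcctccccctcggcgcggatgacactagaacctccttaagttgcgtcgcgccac
The TEAD letters start 136 bases before the start of Wwtr1 and 141 bases before that of Yap1. In Yap1 the second capital stretch, in Gata3 all 3, are TFAP2 letters. No marked stretch overlaps another.

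Of the 10 members 7 had an entry among the RefSeq start regions, and Tead4, Tead1 and Tfap2c had none. The TEAD letters occurred in 3 of the 7, Yap1, Wwtr1 and Amotl2, where 14.4% of 27025 genes have them in at least 1 region of the same length. The TFAP2 letters occurred in 4 of the 7, Yap1, Lats2, Cdx2 and Gata3, against 15.4% of genes. Some of these regions reach into exons of the gene in GENCODE M21, by 136 bases in Amotl2 and 21 in Cdx2. The TFAP2 letters of Cdx2 begin at -16 from its start. A match is a run of letters and not a measured binding site. The GC content of the regions ran high in this set, from 55.2% for Cdx2 to 76.4% for Yap1, apart from the second start of Lats2 at 44.8%, against a median of 52.4% over all regions, and the regions were not matched for it.

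By control mean the 10 genes ranged from 11.6 to 0.0425 FPKM at the 4-cell stage. Wwtr1, Tfap2c and Tead4 had control means of 11.6, 11.1 and 9.05 FPKM, followed by Yap1 at 2.06 and Lats2 at 1.08 FPKM. Lats1, Gata3, Tead1, Amotl2 and Cdx2 had control means of 0.591, 0.532, 0.432, 0.319 and 0.0425 FPKM. FPKM is scaled to transcript length, and levels of different genes are set side by side on that scale only. How oligo(dT) priming and amplification affect levels of different genes was not examined, so their order is approximate. Over all 6 libraries neighbours in this order overlapped, except that every Tead4 value lay above every Yap1 value and every Lats2 value above every Lats1 value. Wwtr1 stood above 65.3% of the 9691 tested genes by mean and Tead4 above 57.9%.

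**Figure D1:**
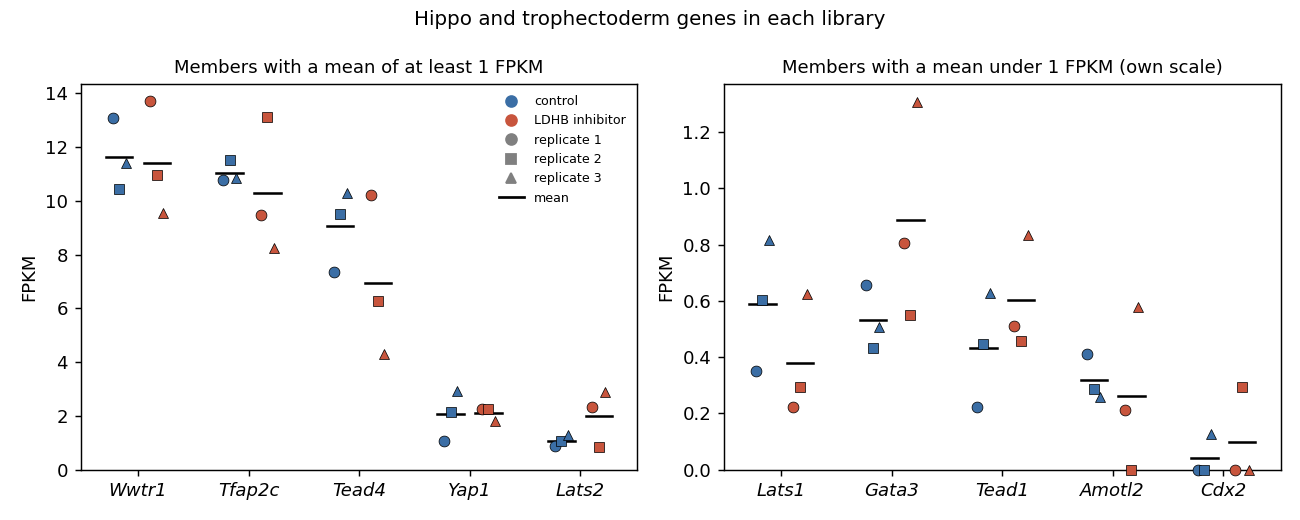
FPKM of each member in each library, with the 5 members above a mean of 1 FPKM on the left and the other 5 on the right, each panel on its own linear axis. Symbols stand for replicate numbers and black bars for group means of 3 libraries. In each of the 10 genes the groups overlap.

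The groups overlapped in every one of the 10 members. In 0 of the 10 did the 3 inhibitor libraries lie all above or all below the 3 controls. Among tested genes 9.13% did so upwards and 6.26% downwards, together 15.4%, and among all genes listed 9.98% did either. In limma 0 of the 5 tested members passed at a false discovery rate of 0.05, where 0% of the 9691 tested genes passed in all. Before adjustment, 0 of the 5 had a p under 0.05, against 8.51% of tested genes. The fold changes of the 5 had a median of -0.04 on the log2(FPKM + 1) scale, with 2 above 0 and 3 below, beside a median of 0.06 over all tested genes. The authors marked 0 members in their deposited table, against 0.792% of genes. With 3 libraries a group, these counts do not show that the members were unaffected, and the intervals below give the changes the data allow.

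Of the DNA-binding factors, Tead4 is the TEAD gene the mouse embryo needs to form trophectoderm. Tead4 (ENSMUSG00000030353, chromosome 6, 128224288 to 128300823, minus strand) was at 7.34, 9.53 and 10.3 FPKM in the controls and at 10.2, 6.29 and 4.32 FPKM in inhibitor replicates 1, 2 and 3. Replicates 2 and 3 lay below all controls and replicate 1 within their range. The log2 fold change of -0.40 had a 95% interval of -1.10 to 0.30 (SE 0.31, limma adjusted p = 0.723). It was -0.68 without inhibitor replicate 1 (limma adjusted p = 0.554), where the groups did not overlap, and -0.14 without inhibitor replicate 3 (limma adjusted p = 0.862).

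Tead1, a related TEAD factor, was at 0.221, 0.445 and 0.629 FPKM in the controls and at 0.512, 0.459 and 0.834 FPKM under the inhibitor. Tead2 and Tead3, the remaining family members, averaged 0.257 ± 0.114 and 0.0263 ± 0.0456 FPKM without and 0.300 ± 0.127 and 0.0460 ± 0.0225 FPKM with the inhibitor (SD, n = 3 each). With their co-regulators these formed a list of which 0 of 5 genes in the table reached the test. Tead4 stood above its 3 relatives in every library. The ratio of Tead4 to Tead1 within a library was 33.2, 21.4 and 16.4 in the controls and 20.0, 13.7 and 5.18 under the inhibitor, and the groups overlapped.

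Of the co-activators, Wwtr1 had the higher level in every library. Wwtr1 (ENSMUSG00000027803, chromosome 3, 57455649 to 57575910, minus strand) was at 13.1, 10.5 and 11.4 FPKM in the controls and at 13.7, 10.9 and 9.57 FPKM under the inhibitor. Its highest library was 1.43 times its lowest, the narrowest range of the 10. The log2 fold change was -0.04, with an interval of -0.54 to 0.47 (SE 0.22, limma adjusted p = 0.975). Its sign changed without control replicate 1, at 0.044, and without inhibitor replicate 3, at 0.073.

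Yap1 (ENSMUSG00000053110, chromosome 9, 7931999 to 8004596, minus strand) was at 1.07, 2.15 and 2.94 FPKM in the controls and at 2.26, 2.26 and 1.83 FPKM under the inhibitor. All inhibitor values lay inside the control range. The log2 fold change was 0.07, with an interval of -0.58 to 0.72 (SE 0.29, limma adjusted p = 0.958), and its sign changed without control replicate 1, at -0.18. Wwtr1 stood 12.2, 4.86 and 3.88 times above Yap1 in the controls and 6.07, 4.85 and 5.24 times under the inhibitor. The sequences of both start regions above hold the TEAD letters once.

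Lats2 was the member with the smallest p. This kinase (ENSMUSG00000021959, chromosome 14, 57689662 to 57758388, minus strand) was at 0.896, 1.08 and 1.28 FPKM in the controls and at 2.33, 0.835 and 2.87 FPKM in inhibitor replicates 1, 2 and 3. Replicates 1 and 3 lay above all controls, and replicate 2, the library with the high 2-cell markers, below them. The log2 fold change was 0.47, with an interval of -0.26 to 1.19 (SE 0.32, unadjusted p = 0.178 and limma adjusted p = 0.697). Without inhibitor replicate 2 it was 0.79 (unadjusted p = 0.0143, limma adjusted p = 0.469), and without inhibitor replicate 3 it was 0.25 (limma adjusted p = 0.772).

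Lats1, its paralog, was at 0.351, 0.604 and 0.817 FPKM in the controls and at 0.222, 0.292 and 0.623 FPKM under the inhibitor. Here replicates 1 and 2 lay below all controls. The ratio of Lats2 to Lats1 within a library was 2.55, 1.78 and 1.56 in the controls and 10.5, 2.86 and 4.61 under the inhibitor. It was the only one of the 3 paralog ratios in which the groups did not overlap. Taken alone, Lats2 and Lats1 each overlapped between the groups. How often ratios of other gene pairs separate the groups was not examined, and 15.4% of tested single genes did so. The Lats2 to Lats1 ratio was formed after the values were seen. Its denominator is under 1 FPKM in every library at an unknown depth, so no test is given. Gm20430, a pseudogene on the opposite strand within Lats2, was at 0.328 to 0.749 FPKM in the controls. In inhibitor replicates 1, 2 and 3 it was at 0.528, 0.413 and 1.34 FPKM, highest where Lats2 was highest. Whether it overlaps exons of Lats2 was not examined, and only reads over shared exon bases could not be told apart without strand. Gm49361, a protein-coding gene on the same strand, also overlaps Lats2 and has no values in the authors' deposited table.

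**Figure D2:**
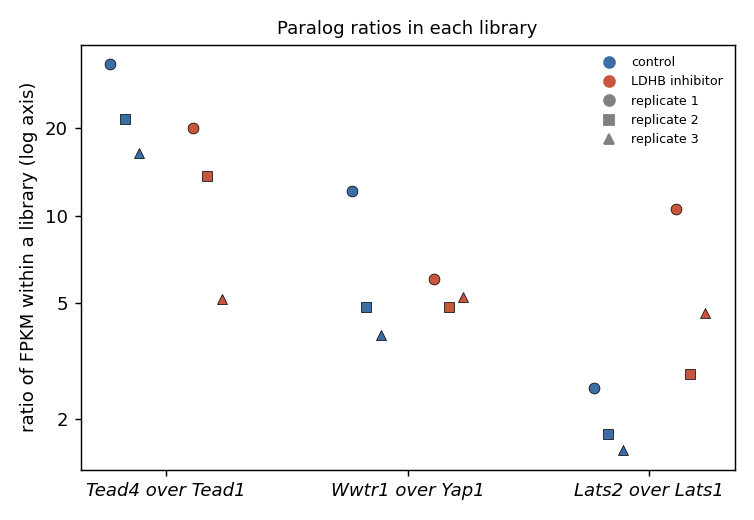
Ratio of FPKM between paralogs within each library, on a log axis, for Tead4 over Tead1, Wwtr1 over Yap1 and Lats2 over Lats1. The Lats2 to Lats1 ratio is 1.56 to 2.55 in the controls and 2.86 to 10.5 in the inhibitor libraries. The other ratios overlap between the groups, as do Lats2 and Lats1 taken alone.

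Amotl2, an angiomotin family scaffold and a target gene of YAP and TEAD, was at 0.412, 0.288 and 0.258 FPKM in the controls and at 0.212, 0 and 0.578 FPKM under the inhibitor. The inhibitor libraries lay on both sides of the controls, with replicate 2 listed at 0. Its relatives Amot and Amotl1 were as low, averaging 0.188 ± 0.0830 and 0.0697 ± 0.0635 FPKM without and 0.203 ± 0.0509 and 0.0681 ± 0.0179 FPKM with the inhibitor (SD, n = 3 each).

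Of the trophectoderm factors, Tfap2c was the one present at a high level. Tfap2c, an AP-2 family transcription factor (ENSMUSG00000028640, chromosome 2, 172549593 to 172558622, plus strand), was at 10.8, 11.5 and 10.9 FPKM in the controls and at 9.47, 13.1 and 8.24 FPKM in inhibitor replicates 1, 2 and 3. The controls were within 3.80% of their mean by SD, against 24.7% for the inhibitor libraries, where replicate 2 was above all controls and replicates 1 and 3 below. The log2 fold change was -0.12, with an interval of -0.64 to 0.41 (SE 0.23, limma adjusted p = 0.896). It was -0.29 without inhibitor replicate 2 and 0.01 without inhibitor replicate 3.

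Gata3, a GATA family factor that acts in parallel with CDX2, was at 0.656, 0.432 and 0.508 FPKM in the controls and at 0.807, 0.549 and 1.31 FPKM under the inhibitor. Replicates 1 and 3 lay above all controls and replicate 2 within them. The genes 4930412O13Rik, on the other strand, and 9230102O04Rik lie across the Gata3 locus in the annotation. Neither has values in the authors' deposited table, so reads shared with them cannot be told apart. Cdx2, the caudal-type homeobox factor of the trophectoderm, was listed at 0 in 4 of the 6 libraries. It was at 0.127 FPKM in control replicate 3 and at 0.295 FPKM in inhibitor replicate 2.

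Whether the groups were apart in a member depended on which libraries were included. Without inhibitor replicate 2, Lats2 and Gata3 lay above all controls and Tfap2c below. Groups then did not overlap in 3 of the 10 members, 2 of them among the 5 tested. Among all genes listed 18.0% did so without that library, and among tested genes 26.2%. Leaving out control replicate 1 separated the groups in Gata3, where 16.9% of all genes and 23.6% of tested genes were then apart. Without control replicate 3 this held for Tead1, against 17.3% and 25.4%, and without inhibitor replicate 1 for Tead4, against 18.5% and 27.1%. Without inhibitor replicate 3 it held for Lats1 and Amotl2, against 20.4% and 31.6%. Without control replicate 2 it held for 0 members, against 16.4% and 22.8%. More genes separate with 5 libraries than with 6, where the share was 9.98% of all genes and 15.4% of tested genes. Whether the high 2-cell markers of inhibitor replicate 2 have a part in these values was not tested.

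**Figure D3:**
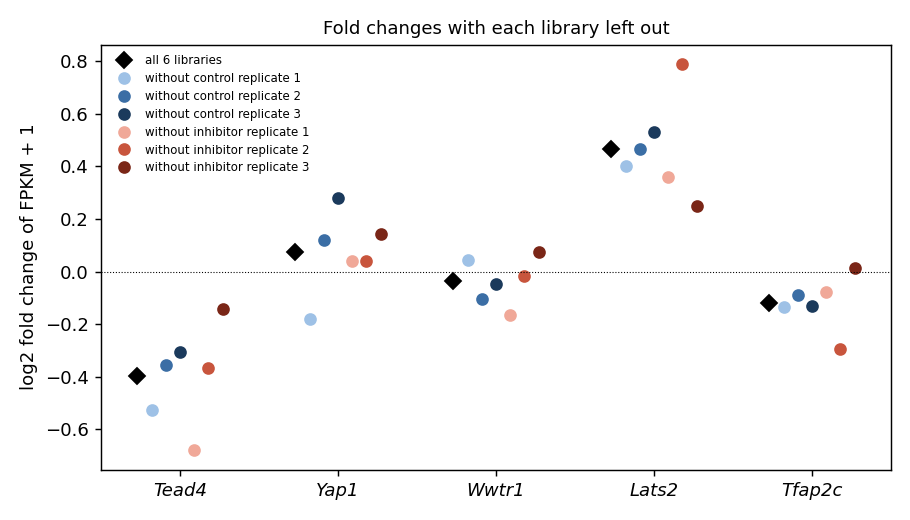
Log2 fold change of FPKM + 1, inhibitor against control, for the 5 tested members with all 6 libraries (black diamonds) and with each library left out (circles). Lats2 stays above 0 and Tead4 below 0 throughout, with Lats2 from 0.25 to 0.79 and Tead4 from -0.68 to -0.14, while Yap1, Wwtr1 and Tfap2c each cross 0.

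The rest of the pathway was examined in 5 further lists, of which 28 genes other than the members were tested. Of these 17 had fold changes above 0, or 60.7%, where 57.1% of all tested genes did. Their median was 0.05, beside 0.06 over all tested genes. In limma 0 passed at a false discovery rate of 0.05. Before adjustment, 2 genes were higher with a p under 0.05, Prkcz and Stk4, and 1 lower, Crb3, where 4.72% of tested genes were higher and 3.80% lower. Stk4 and Crb3 each kept a p under 0.05 in 11 of 15 alternatives. The groups did not overlap in 6 of the 28, or 21.4%, against 15.4% of tested genes.

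The apical polarity genes included the only gene of these lists that the authors marked. Prkcz, which encodes the atypical protein kinase C zeta of the apical polarity complex (ENSMUSG00000029053, chromosome 4, 155260129 to 155361361, minus strand), was at 1.75, 1.69 and 2.09 FPKM in the controls and at 3.81, 3.65 and 3.84 FPKM under the inhibitor. The lowest inhibitor library stood well above the highest control, and the libraries within each group were close. The authors' deposited table gives a ratio of means of 2.04 with a q-value of 0.00403. In limma the log2 fold change was 0.75, with an interval of 0.25 to 1.24 (SE 0.22, unadjusted p = 0.00788), and the adjustment over all genes left it short of the threshold (limma adjusted p = 0.426). It was from 0.66 to 0.996 over the 14 alternatives in which it was tested, with an unadjusted p of at most 0.0340 in each. An annotated antisense gene, Gm27200, lies in the locus and has no values in the authors' deposited table.

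Its partners and the other complexes of the list gave mixed values. Prkci, the iota form of the kinase, averaged 0.921 ± 0.499 FPKM without and 0.854 ± 0.385 FPKM with the inhibitor, and Pard6b, a partner of both, 1.07 ± 0.600 and 0.968 ± 0.314 FPKM (SD, n = 3 each). Crb3, an apical membrane protein of the Crumbs complex, was at 145, 171 and 129 FPKM in the controls and at 117, 118 and 93.2 FPKM under the inhibitor. All inhibitor libraries lay below all controls, and the log2 fold change was -0.44 (SE 0.18, unadjusted p = 0.0404, limma adjusted p = 0.572). The unadjusted p was 0.0747 in a limma fit neither trended nor robust, 0.0824 and 0.162 without control replicates 1 and 2, and 0.105 without inhibitor replicate 3. Cdc42, a small GTPase of the polarity complex that was named after its values were seen, also lay below all controls, at 214 ± 23.3 and 185 ± 10.4 FPKM (limma adjusted p = 0.721). Of the 9 tested genes 6 were above 0 and 3 below, with a median of 0.06.

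In the core cassette Stk4, the MST1 kinase that activates LATS with its adaptors, was at 5.26, 5.73 and 4.87 FPKM in the controls and at 7.30, 8.60 and 10.3 FPKM under the inhibitor. All inhibitor libraries lay above all controls. The log2 fold change was 0.62, with an interval of 0.11 to 1.14 (SE 0.23, unadjusted p = 0.0233, limma adjusted p = 0.514). The unadjusted p was 0.0587 in limma after quantile normalization, 0.0592 and 0.0659 without control replicates 1 and 3, and 0.0619 without inhibitor replicate 3. The span of Tomm34, at 5.45 to 11.04 FPKM, overlaps that of Stk4 on the opposite strand. Whether their exons overlap was not examined, and only reads over shared exon bases could not be told apart without strand. Stk3, the MST2 paralog, averaged 0.379 ± 0.0693 and 0.452 ± 0.175 FPKM (SD, n = 3 each).

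Among the adaptors of the cassette, Nf2, which encodes Merlin, an upstream activator of LATS, averaged 3.85 ± 1.04 FPKM without and 5.67 ± 1.66 FPKM with the inhibitor (SD of 3 libraries; limma adjusted p = 0.675), and the groups overlapped. Mob1b, a LATS co-activator named after its values were seen, averaged 4.12 ± 0.276 and 3.22 ± 0.376 FPKM with all inhibitor libraries below the controls (limma adjusted p = 0.721). Its relative Mob1a averaged 9.98 ± 1.28 and 10.5 ± 2.81 FPKM. Of the 8 tested genes of the list 5 were above 0 and 3 below, with a median of 0.02.

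**Figure D4:**
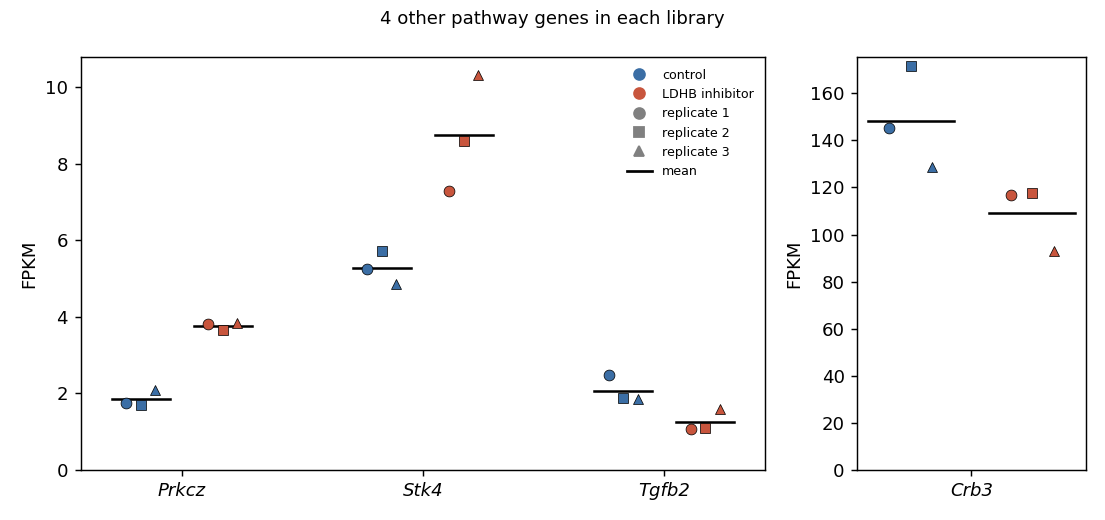
FPKM of Prkcz, Stk4, Tgfb2 and Crb3 in each library, with Crb3 on its own axis; symbols stand for replicate numbers and bars for group means of 3 libraries. The inhibitor libraries lie above the controls in Prkcz and Stk4 and below them in Tgfb2 and Crb3.

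Most target genes of YAP and TEAD in the table averaged under 1 FPKM. Of the 9 in the table other than members 3 were tested, 1 with a fold change above 0 and 2 below (median -0.08), and 0 passed. The members Lats2 and Amotl2 are target genes on this list too and are left out of these counts. Lats2 was tested, with a log2 fold change of 0.47, and Amotl2 was not tested. By group mean Lats2 was higher with the inhibitor and Amotl2 lower. By group mean 4 of the 9 were higher with the inhibitor and 5 lower. Ccn1, a secreted matricellular protein, averaged 3.46 ± 0.904 FPKM without and 3.36 ± 1.56 FPKM with the inhibitor (SD of 3 libraries; limma adjusted p = 0.960). Tgfb2, a growth factor of the TGF-beta family, was at 2.48, 1.87 and 1.85 FPKM in the controls and at 1.08, 1.08 and 1.58 FPKM under the inhibitor, all below the controls (log2 fold change -0.45, SE 0.23, limma adjusted p = 0.628). Ccn2 and Ankrd1, the other widely used targets, averaged 0.373 ± 0.345 and 0.0916 ± 0.0804 FPKM without and 0.109 ± 0.0630 and 0.0385 ± 0.0666 FPKM with the inhibitor. Values the other way were those of F3, tissue factor, at 0.237 ± 0.258 and 0.627 ± 0.454 FPKM, and of the kinase gene Nuak2, at 0.00580 ± 0.0100 and 0.107 ± 0.186 FPKM. Ajuba, a LIM protein that restrains LATS and the remaining tested gene other than members, averaged 3.32 ± 0.179 and 3.34 ± 0.489 FPKM (SD, n = 3 each).

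Of 19 further trophectoderm genes 9 were tested, 6 of them above 0 and 3 below, with a median of 0.36, and 0 passed. Eomes and Elf5, later trophoblast factors, were at most 0.0791 and 0.00430 FPKM in any library, as low as Cdx2. Klf5, a Krüppel-like factor active in preimplantation embryos, averaged 8.92 ± 0.971 FPKM without and 9.06 ± 2.93 FPKM with the inhibitor. Aqp3, a water channel, was at 0.730, 1.09 and 0.192 FPKM in the controls and at 2.41, 3.86 and 0.407 FPKM under the inhibitor (limma adjusted p = 0.646). Cldn4, a tight junction protein, was at 19.0, 20.8 and 5.75 FPKM and at 39.6, 15.7 and 26.5 FPKM (limma adjusted p = 0.660). In both genes the groups overlapped.

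**Figure D5:**
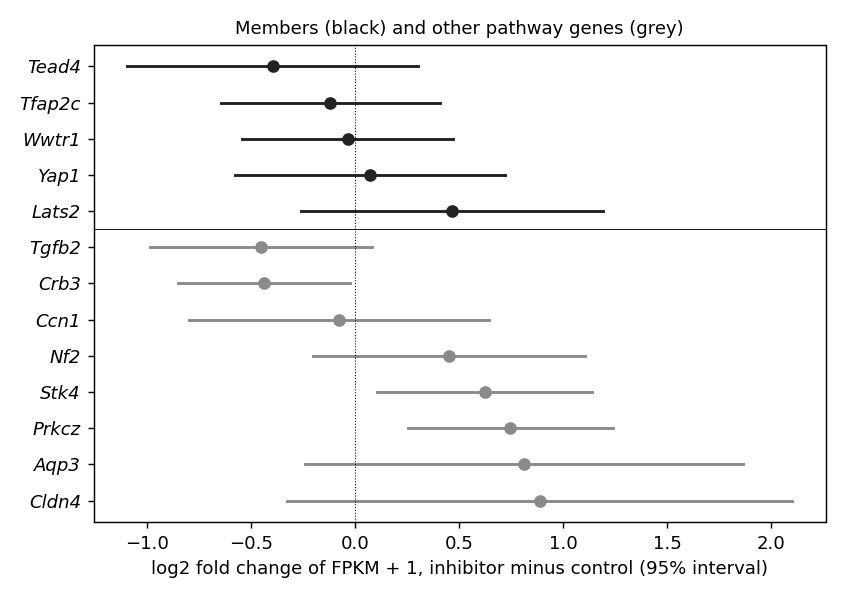
Log2 fold change of FPKM + 1, inhibitor minus control, with its 95% interval from limma, for the 5 tested members (black) and 8 other pathway genes (grey). The intervals of all 5 members include 0, and those of Prkcz, Stk4 and Crb3, which are not adjusted for the number of genes, do not.

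The authors' deposited enrichment table counts 2 marked genes, Wnt11 and Prkcz, among 157 genes of the KEGG Hippo signaling pathway. Over all genes in that enrichment it counts 43 marked among 8430. The authors' enrichment p-value was 0.191 and the q-value 0.621. Neither Wnt11 nor Prkcz is among the 10 members.

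The genes whose values over the 6 libraries were most like those of Tead4 on the log2(FPKM + 1) scale were Gm5873, Akr1b3 and Dhrs1, with a Pearson correlation of 0.985, 0.978 and 0.976. For Tfap2c they were Pmfbp1, Khdrbs1 and Arl15, at 0.995, 0.991 and 0.985. With only 6 libraries, 79 genes exceeded 0.9 with Tead4 and 125 with Tfap2c, and the libraries that stand apart enter each value.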

How the data were processed

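The deposited table holds FPKM for each gene in each library, with a ratio (fold) of group means, its log2, a p-value and a q-value, per the file headers; the sources used here do not name the tool behind the p-value. Genes marked by the authors have a q-value under 0.05 and an absolute log2 ratio of 1 or more, which held for all 233. The deposited enrichment table gives gene numbers, treated as a score. The submitters' processing notes name cutadapt 1.9, HISAT2 2.2.1, StringTie 2.1.6, DESeq2, edgeR and GRCm38, without roles. Full-length cDNA was primed with oligo(dT) and amplified, per the labels' protocols, which mention neither strand nor molecular identifiers. Low values fell on no steps, so depth is unknown and no counting interval is given.

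The whole table was fitted on log2(FPKM + 1) in limma 3.58.1 (R 4.3.3), trended and robust, for genes averaging 1 FPKM or more, with Benjamini-Hochberg adjustment over all genes tested; the scale understates changes of low genes. The fit code was also run on simulated data with independent noise and no libraries standing apart. That run is no support for the results here. Replicate numbers were not treated as pairs: same-numbered deviations correlated at 0.136, 0.202 and 0.0368. Members and lists were chosen with earlier results of these data known. Named were the members and the 3 genes most like Tead4 and Tfap2c. In each list, genes past the threshold (up to 4) were named, or else the 2 tested genes with the smallest p. Others named as relatives or after seeing values were Tead2, Tead3, Stk3, Amot, Amotl1, Mob1a, Mob1b, Prkci, Pard6b and Cdc42. So were Ccn2, Ankrd1, F3, Nuak2, Ajuba, Eomes, Elf5, Klf5, Dppa3, Ooep and Nlrp5. Of 29431 identifiers 29348 were in GENCODE M21, on the same build, which gave coordinates. Alternatives covered the pseudocount, filter, scaling, library weights, fit, replicate block and each library left out. Plots used matplotlib 3.10.9.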

Additional observations from a re-analysis of the deposited data

How the results depend on the processing

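Over 15 alternatives 0 members and 0 other pathway genes passed. The members without overlap between groups numbered 1 under quantile normalization (Tfap2c), where 14.8% of tested genes were apart, and 0 to 3 of 10 with each library left out, where 22.8% to 31.6% of tested genes and 16.4% to 20.4% of all genes were. All genes called numbered 0 in the full fit and 0 to 12 with each library left out (12 without inhibitor replicate 1). With a replicate block, 0 members passed and the fold changes were as before, at -0.40 for Tead4 and 0.47 for Lats2. Each inhibitor replicate correlated best with the control of its own number, replicate 3 by little (0.0368 against 0.0345 with control replicate 1). Control replicate 3 correlated better with inhibitor replicate 1 (0.0546) than with its own number. Yap1 was at -0.0076 under quantile normalization and -0.18 to 0.28 with each library left out. Wwtr1 was at 0.055 with array weights and -0.17 to 0.073 with each library left out, Tfap2c at -0.29 to 0.013 and Ccn1 at -0.34 to 0.20. Genes with p under 0.05 before adjustment numbered 457 higher and 368 lower, 299 and 512 with median-ratio scaling, and 264 and 548 with quantile normalization. Tead4 and Lats2 kept their direction in all alternatives that tested them. With a minimum mean of 5 FPKM, Yap1, Lats2 and Prkcz were among the genes not tested. The unknown depth limits what can be read from the 5 members under 1 FPKM.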
